A study of Rattus norvegicus with 9 samples.

Results

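The 6 genes described here encode the mitochondrially encoded subunits of respiratory complexes III, IV and V. They are mt-Cytb (ENSMUSG00000064370) of complex III, mt-Co1 (ENSMUSG00000064351), mt-Co2 (ENSMUSG00000064354) and mt-Co3 (ENSMUSG00000064358) of complex IV, and mt-Atp6 (ENSMUSG00000064357) and mt-Atp8 (ENSMUSG00000064356) of complex V. They were chosen by identifier for their function, with earlier results of these data known. All 6 stood among the 17862 features listed in every library. RNA was sequenced from kidney after ribosomal RNA depletion in 9 libraries, 3 from each of 3 groups, all at 6 weeks of age. WT libraries came from animals labelled normal, Model libraries from animals labelled with hypertension, and QDG libraries from animals with hypertension that were given Qingda granule, a Chinese herbal preparation. The title of the series names mitochondrial protection by the granule as its question. The sources used here do not give the strain, the origin of the hypertension, the dose and duration of the granule, or whether each library stands for its own animal. The spread that the tests rest on is that between these libraries and may be technical. The labels name the rat as organism, while the identifiers carry the mouse Ensembl prefix. The kidney cell type markers are written in gene symbols, of which 0 could be matched to the identifiers, so the tissue label was not checked.

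Mitochondria keep a small circular genome of their own, from which both strands are transcribed as long precursors that are cut into separate messengers. All 6 genes lie on the same strand of that genome. Cytochrome b passes electrons within complex III, the 3 cytochrome c oxidase subunits form the catalytic core of complex IV, and the ATP synthase subunits 6 and 8 form part of the proton path and the membrane anchor of complex V. The remaining subunits of these complexes are encoded in the nucleus. Mitochondrial messengers are abundant in kidney, where tubule cells spend much ATP on ion transport. mt-Atp8 and mt-Atp6 overlap on the genome and are carried on a single messenger, and nuclear genomes hold copies of mitochondrial DNA. No source used here says how reads that match several places were counted, so the levels of these genes, and of mt-Atp8 and mt-Atp6 in particular, are uncertain to an extent that was not tested.

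Levels are the values that the authors deposited without naming the unit. They were taken to be FPKM (read counts per gene length and library total). The library totals implied by the steps of these values lay between 26.2 M (WT 1) and 31.4 M (WT 3). Whole reads could be recovered for every feature, together with its length. The lengths were 1545 bases for mt-Co1, 1144 for mt-Cytb, 784 for mt-Co3, 684 for mt-Co2, 681 for mt-Atp6 and 204 for mt-Atp8. Intervals from read counts below are exact 95% Poisson intervals, which cover counting error only.

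mt-Cytb and mt-Co1 were among the 3 most abundant features of every library, while the other 4 genes were far lower per length. mt-Cytb, the complex III subunit, stood at 33551, 23564 and 18136 FPKM in WT 1 to 3, at 17881, 17118 and 20979 FPKM in Model 1 to 3, and at 19022, 19722 and 26076 FPKM in QDG 1 to 3. WT 1 was the highest library and Model 2 the lowest, and all pairs of groups overlapped. The WT mean was 25084 ± 7819 FPKM (SD, n = 3), the Model mean 18659 ± 2045 and the QDG mean 21607 ± 3887.

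mt-Co1, which encodes the subunit of complex IV that holds its oxygen-reducing site, stood at 37279.7, 30449.7 and 24008 FPKM in WT 1 to 3, at 22542, 20041 and 21013 FPKM in Model 1 to 3, and at 22970, 24652 and 30703 FPKM in QDG 1 to 3. All Model libraries lay below all WT libraries and below all QDG libraries, while QDG and WT overlapped. The gap between the lowest QDG and the highest Model library was narrow. The WT mean was 30579 ± 6637 FPKM (SD, n = 3), the Model mean 21199 ± 1261 and the QDG mean 26108 ± 4067.

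mt-Co2, which carries the copper site that takes electrons from cytochrome c, stood at 2118, 1504 and 1262 FPKM in WT 1 to 3, at 597, 1258 and 1728 FPKM in Model 1 to 3, and at 744, 1570 and 2039 FPKM in QDG 1 to 3. Model 1 and QDG 1 stood apart as the low libraries of their groups, and the groups overlapped. mt-Co3, the third core subunit of complex IV, stood at 2431, 1093 and 623 FPKM in WT 1 to 3, at 1254, 449.98 and 1524 FPKM in Model 1 to 3, and at 1151, 1156 and 1871 FPKM in QDG 1 to 3. Its low libraries were Model 2 and WT 3, so the libraries that were low for mt-Co2 were not those that were low for mt-Co3. The ratio of the highest to the lowest WT library was 3.90 for mt-Co3 and 1.68 for mt-Co2.

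mt-Atp6, the proton channel subunit of ATP synthase, stood at 2588, 923 and 1025 FPKM in WT 1 to 3, at 624, 904 and 1067 FPKM in Model 1 to 3, and at 935, 637 and 1415 FPKM in QDG 1 to 3. WT 1 stood far above the other libraries. The WT mean was 1512 ± 933 FPKM (SD, n = 3), the Model mean 865 ± 224 and the QDG mean 996 ± 392. mt-Atp8, the small membrane subunit of ATP synthase, stood at 135, 75.1 and 29.97 FPKM in WT 1 to 3, at 35.6, 25.7 and 15.2 FPKM in Model 1 to 3, and at 22.9, 28.97 and 61.8 FPKM in QDG 1 to 3. WT 3 lay below Model 1, so the groups overlapped. mt-Atp8 rested on 83 recovered reads in Model 3, an interval of 12.1 to 18.8 FPKM, and on 722 reads in WT 1, an interval of 125 to 145 FPKM. The differences of mt-Atp8 between these libraries were therefore far wider than counting error.

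**Figure D1:**
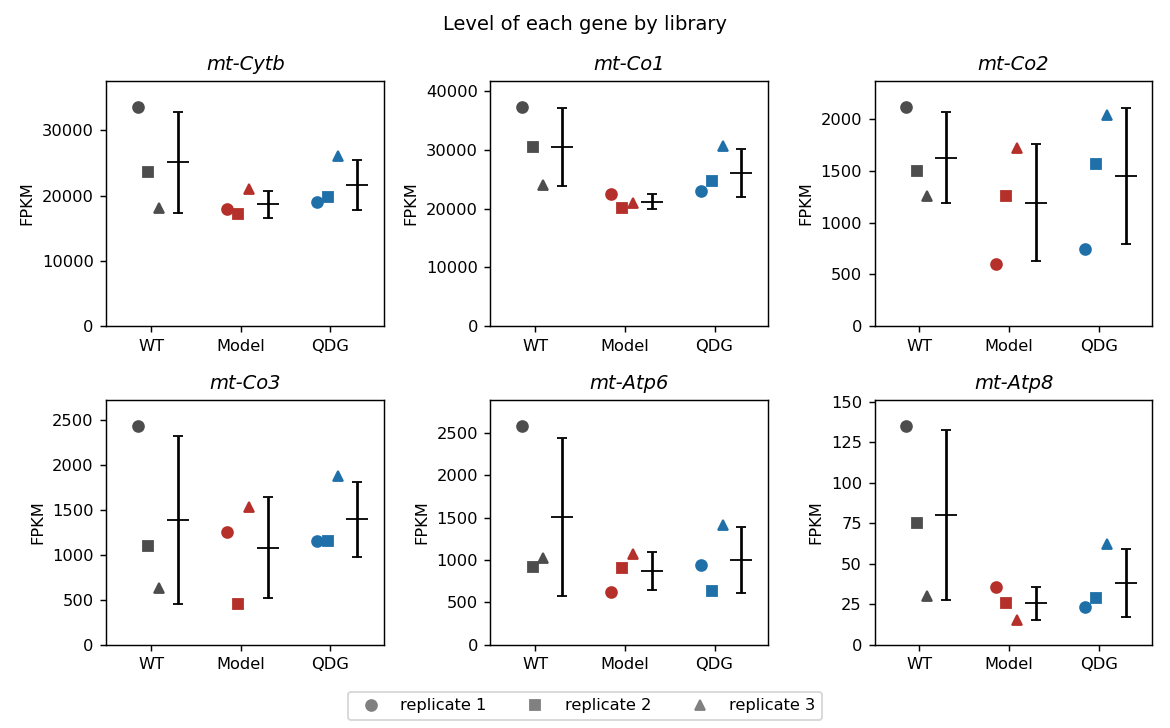
Level of each gene in FPKM on the vertical axis (linear, from 0), by group on the horizontal axis. Points are libraries, with the shape giving the replicate number, and the bar beside each group is the mean with its SD (n = 3). WT 1 is the highest library in all 6 panels, at 37279.7 FPKM for mt-Co1 and 135 FPKM for mt-Atp8.

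WT 1 was the highest of the 9 libraries for 6 of 6 genes. QDG 3 came next for 5 of 6 genes, and for mt-Atp8 it came after WT 2. The lowest library was a Model library for 6 of 6 genes, namely Model 2 for 3 genes, Model 1 for 2 and Model 3 for 1. From the lowest to the highest library, the level spanned 1.86-fold for mt-Co1, 1.96-fold for mt-Cytb, 3.55-fold for mt-Co2, 4.15-fold for mt-Atp6, 5.40-fold for mt-Co3 and 8.91-fold for mt-Atp8.

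Together the 6 genes held a smaller part of each Model library than of any other library. Their share of the summed FPKM was 16.1%, 13.8% and 12.2% in WT 1 to 3, 9.82%, 9.88% and 9.46% in Model 1 to 3, and 10.7%, 12.1% and 14.6% in QDG 1 to 3. The Model libraries lay close together and below all others, while WT and QDG overlapped. The share depends on the summed FPKM of each library, which differed between libraries, as well as on the 6 genes. In FPKM, mt-Cytb was higher in Model 3 (20979) than in WT 3 (18136) or QDG 1 (19022). mt-Co1 was lower in Model 3 (21013) than in WT 3 (24008) or QDG 1 (22970). The means were 14.0% ± 1.9997 (SD, n = 3) in WT, 9.72% ± 0.226 in Model and 12.5% ± 1.98 in QDG. QDG against Model differed by 2.75 percentage points, and by 1.68 (without QDG 3) to 3.64 (without QDG 1) with 1 library left out. QDG against WT differed by −1.57 points, and by −2.64 (without QDG 3) to −0.52 (without WT 1). Counted in recovered reads over the listed features, the share was 9.70%, 7.52% and 6.66% in WT 1 to 3, 5.58%, 5.55% and 5.58% in Model 1 to 3, and 5.94%, 6.58% and 8.16% in QDG 1 to 3. mt-Co1 and mt-Cytb gave 94.8% to 96.8% of the reads of the 6 genes in every library, so the share describes mainly these genes. A lower share can go with a higher sum over the other features as well as with lower values of the 6 genes. Fewer mitochondria-rich cells and less mitochondrial RNA per cell cannot be told apart in whole-tissue RNA either, and no cause was tested.

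**Figure D2:**
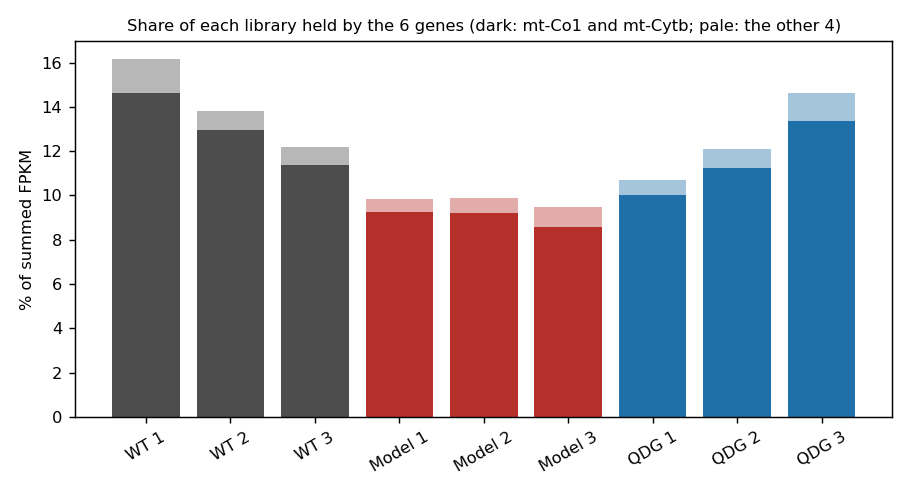
Share of the summed FPKM of each library held by the 6 genes, in percent, with libraries on the horizontal axis. The dark part is mt-Co1 and mt-Cytb and the pale part the other 4 genes; the 3 Model bars end between 9.46% and 9.88% and all others at 10.7% or above.

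Model was set against WT to see whether the hypertensive kidney differed in these genes. None of the 6 genes passed the test, although the fitted level was lower in Model for 6 of 6, as it was for 47.0% of all features. The genes shared their high libraries, WT 1 for 6 of 6 and QDG 3 next for 5 of 6. Like signs across these genes are therefore not independent, in this or the other comparisons. The test was limma on log2(FPKM + 1) over the 12187 features that averaged 1 FPKM or more, all 9 libraries in 1 fit, with an adjusted p under 0.05 called. It called 0 of 6 genes, where 7.90% of all features tested were called and 1.90% were called lower. At an unadjusted p under 0.05 it took 1 of 6 (mt-Atp8), against 28.0% of all features, and voom on recovered reads called 0 of 6 under 3 scalings. mt-Atp8 had the largest difference, a log2 change of −1.45 (SE 0.52) and a 95% interval of −2.61 to −0.28 before adjustment (limma adjusted p = 0.109). It also rested on the fewest reads of the 6 genes, from 83 (Model 3) to 722 (WT 1). It overlaps mt-Atp6 on the same messenger, so its own level is uncertain. It passed only in the fit without WT 3, where the log2 change was −2.02 (limma adjusted p = 0.0287), and stood at −0.95 without WT 1.

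Of the other complex V subunit, mt-Atp6, the log2 difference was −0.67 (SE 0.41, limma adjusted p = 0.308), and −0.20 without WT 1. The complex IV subunits gave log2 differences of −0.51 for mt-Co1 (SE 0.24, limma adjusted p = 0.202), −0.54 for mt-Co2 (SE 0.44, limma adjusted p = 0.440) and −0.31 for mt-Co3 (SE 0.53, limma adjusted p = 0.730). mt-Co1 alone had groups that did not overlap, which held for 10.9% of all features in the direction of lower Model values. Without 1 library, mt-Co2 ranged from −0.87 (Model 3 left out) to −0.11 (Model 1 left out). The sign of mt-Co3 turned without WT 1 (0.20) or without Model 2 (0.22). mt-Cytb of complex III differed by −0.39 (SE 0.27, limma adjusted p = 0.376), and by −0.15 without WT 1. The 95% intervals reached from −1.05 to 0.03 for mt-Co1 and from −0.99 to 0.22 for mt-Cytb, which spans falls of that size as well as a small rise.

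The median log2 difference of the 6 genes was −0.53 (from −1.45 to −0.31), against 0.02 over all features tested. Features as short as these genes, between 204 and 1545 bases, had a median of 0.23 over 1861 features with the 6 genes left out, and 28.4% of them were below 0. The 531 other features that averaged 100 FPKM or more had a median of 0.27, with 23.7% below 0. After removal of each library's trend with feature length, the log2 differences were −0.70 for mt-Co1, −0.61 for mt-Cytb and −1.66 for mt-Atp8, and 0 of 6 were called.

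**Figure D3:**
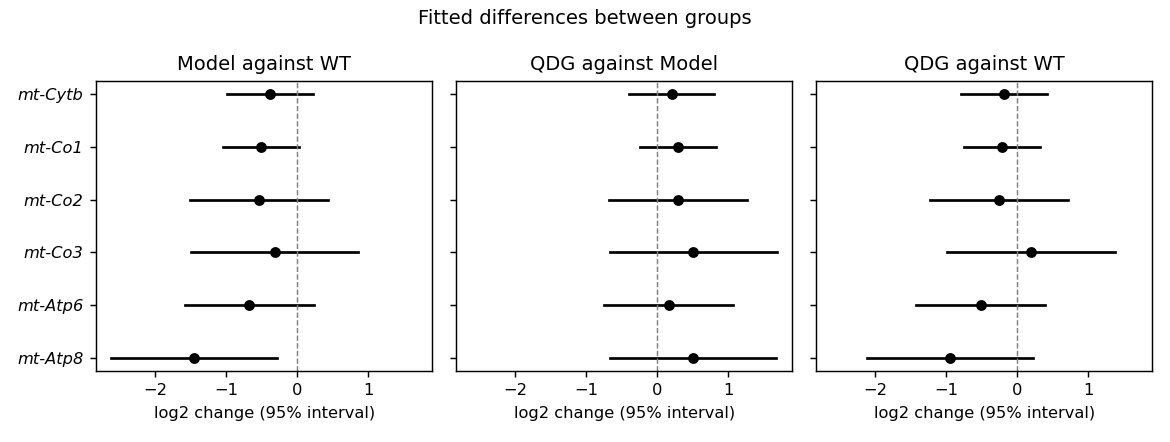
Fitted log2 change on the log2(FPKM + 1) scale (points) with its unadjusted 95% interval (lines) for each gene, in 3 panels of 1 comparison each. All 6 points lie below 0 for Model against WT and above 0 for QDG against Model, and the interval excludes 0 for mt-Atp8 in Model against WT alone.

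QDG was set against Model to see whether these genes differed after the granule was given. The fitted level was higher in QDG for 6 of 6 genes, while 53.5% of all features were lower, and none of the 6 passed the test. Limma called 0 of 6 genes, with 0.00% of all features called, and 0 of 6 had an unadjusted p under 0.05 (13.9% of all features). Voom also called 0 of 6 under 3 scalings. The log2 differences were 0.20 for mt-Cytb (SE 0.27, limma adjusted p = 0.764), 0.29 for mt-Co1 (SE 0.24, limma adjusted p = 0.603), 0.29 for mt-Co2 (SE 0.44, limma adjusted p = 0.788) and 0.51 for mt-Co3 (SE 0.53, limma adjusted p = 0.684). They were 0.16 for mt-Atp6 (SE 0.41, limma adjusted p = 0.879) and 0.50 for mt-Atp8 (SE 0.52, limma adjusted p = 0.685). mt-Co1 again was the gene whose groups did not overlap, as did 10.4% of all features in the direction of higher QDG values. Much of the higher level came from QDG 3. Without it the log2 differences were 0.17 for mt-Co1, 0.06 for mt-Cytb, 0.28 for mt-Co3, 0.09 for mt-Atp8, −0.01 for mt-Co2 and −0.13 for mt-Atp6. Without Model 1 the signs of mt-Co2 (−0.14) and mt-Atp6 (−0.06) turned, and without Model 2 that of mt-Co3 (−0.029).

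The interval for mt-Co1 reached from −0.25 to 0.83 and that for mt-Co3 from −0.67 to 1.69, which spans lower as well as much higher levels. The median log2 difference of the 6 genes was 0.29 (from 0.16 to 0.51), against −0.02 over all features tested, −0.22 over features of 204 to 1545 bases and −0.21 over the 531 other features that averaged 100 FPKM or more. This comparison shares the Model libraries with the comparison of Model with WT, so opposite signs in the 2 comparisons are not independent.

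In QDG against WT, limma called 0 of 6 genes, where 2.47% of all features were called, and 0 of 6 had an unadjusted p under 0.05 (21.3% of all features). Voom called 0 of 6. The fitted level was lower in QDG for 5 of 6 genes and for 50.1% of all features. The log2 differences were −0.18 for mt-Cytb, −0.22 for mt-Co1, −0.25 for mt-Co2, −0.51 for mt-Atp6 and −0.95 for mt-Atp8, with limma adjusted p of 0.732, 0.640, 0.778, 0.498 and 0.329. mt-Co3 differed by 0.20 (limma adjusted p = 0.865). The mean FPKM of QDG lay between those of WT and Model for 5 of 6 genes, and that of mt-Co3 was 1392 ± 415 in QDG and 1382 ± 938 in WT (SD, n = 3). Without WT 1 the log2 differences shrank to −0.06 for mt-Co1, −0.04 for mt-Atp6 and −0.45 for mt-Atp8, and turned to 0.05 for mt-Cytb.

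Ratios within a library do not change with how the library is scaled. They do depend on how reads that match several places were counted, which is not known. In the deposited values they set these genes in 3 tiers. mt-Cytb stood at 75.5% (WT 3) to 99.8% (Model 3) of mt-Co1. mt-Co2 stood at 2.65% to 8.22% of mt-Co1, mt-Co3 at 2.25% to 7.25% and mt-Atp6 at 2.59% to 6.94%. mt-Atp8 stood at 0.0722% (Model 3) to 0.362% (WT 1). The order of mt-Co1 over mt-Cytb, of both over the middle genes, and of these over mt-Atp8 was the same in all 9 libraries, while mt-Co2, mt-Co3 and mt-Atp6 changed places from library to library. mt-Atp6 exceeded mt-Atp8 by 12.3-fold (WT 2) to 70.4-fold (Model 3), although both are carried on a single messenger. The tiers are therefore not read as amounts of messenger, and how far they come from read counting was not tested.

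The tightest ratio was that of mt-Cytb to mt-Co1, whose highest value was 1.32 times its lowest. The other ratios to mt-Co1 varied 2.68-fold (mt-Atp6), 3.11-fold (mt-Co2), 3.23-fold (mt-Co3) and 5.02-fold (mt-Atp8). No ratio separated the groups. In 15 tests, 5 ratios in 3 comparisons, the exact two-sided permutation p was at least 0.2 and the adjusted p was 1 (3 libraries against 3 cannot go below 0.1). The largest difference was that of mt-Atp8 to mt-Co1 between Model and WT, −9.78 ± 0.59 against −8.81 ± 0.78 on the log2 scale (SD, n = 3; exact permutation p = 0.3). mt-Co2 to mt-Co1 was even in WT, at 5.68%, 4.94% and 5.26%, but ran from 2.65% to 8.22% in Model and from 3.24% to 6.64% in QDG.

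**Figure D4:**
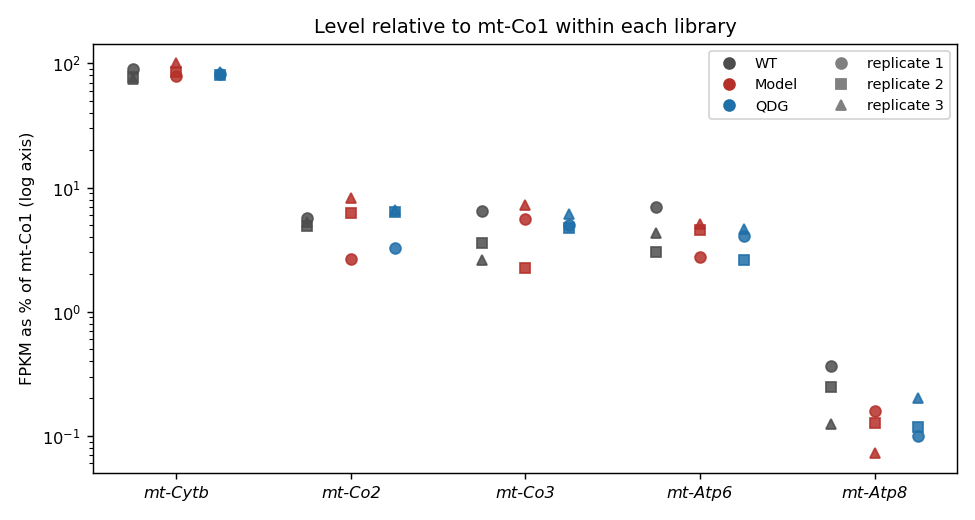
FPKM of each gene as a percentage of mt-Co1 in the same library, on a log axis, with colour for the group and shape for the replicate number. mt-Cytb lies between 75.5% and 99.8%, mt-Co2, mt-Co3 and mt-Atp6 between 2.25% and 8.22%, and mt-Atp8 between 0.0722% and 0.362%.

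The middle genes varied more between libraries of a group than almost any other feature that averaged 100 FPKM or more. The residual SD within groups, on the log2(FPKM + 1) scale, was 0.82 for mt-Co3, 0.67 for mt-Co2 and 0.62 for mt-Atp6. The median of the 531 other features that averaged 100 FPKM or more was 0.21, and 2, 5 and 6 of them exceeded these 3 genes. mt-Atp8 had a residual SD of 0.83, above 99.7% of all other features tested. mt-Cytb and mt-Co1 were closer to the rest, with residual SDs of 0.31 and 0.23, above 82.7% and 63.5% of the 531 features. The lowest library still held 10584 reads for mt-Co3 (Model 2, a counting interval of 441 to 459 FPKM), 11746 for mt-Co2 (Model 1) and 12227 for mt-Atp6 (Model 1), so the spread was far wider than counting error.

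**Figure D5:**
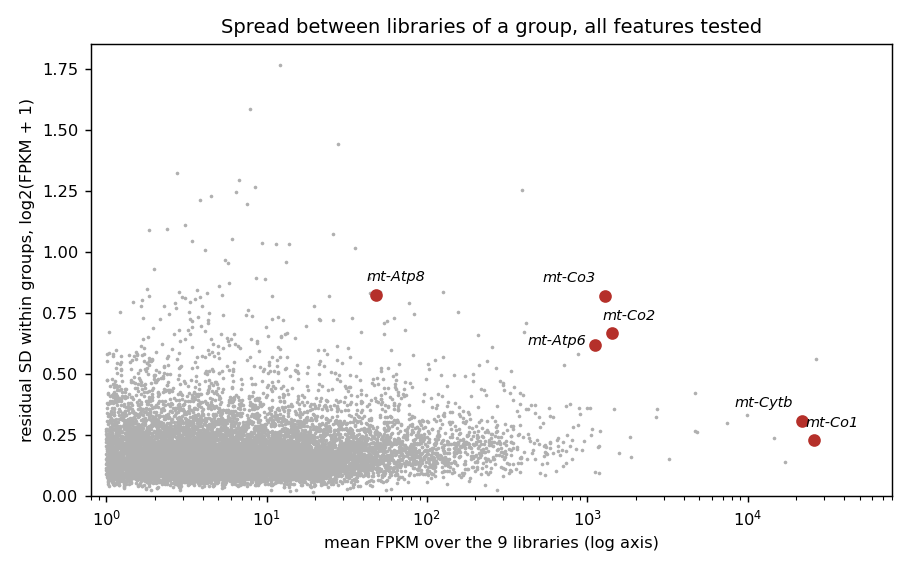
Residual SD within groups on the log2(FPKM + 1) scale against mean FPKM over the 9 libraries (log axis), for all 12187 features tested in grey and the 6 genes in red. mt-Co2, mt-Co3 and mt-Atp6 stand above nearly all features that averaged 100 FPKM or more, at 0.62 to 0.82, while mt-Co1 and mt-Cytb lie at 0.23 and 0.31.

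The pattern of the 6 genes over the 9 libraries was taken as the mean of their log2(FPKM + 1). Among them, mt-Cytb followed it most closely (Pearson's r = 0.99) and mt-Co2 least (r = 0.70). Each of the 6 genes is itself part of that mean, which raises its r. Of all other features tested, ENSMUSG00000064363 was most like the pattern (r = 0.99, n = 9 libraries), with means of 8504 ± 2700 FPKM (SD, n = 3; WT), 6478 ± 684 (Model) and 7227 ± 1233 (QDG). ENSMUSG00000097415 came next (r = 0.95), at low means of 2.80 ± 0.676 FPKM (WT), 2.18 ± 0.105 (Model) and 2.30 ± 0.281 (QDG). ENSMUSG00000105957 (r = 0.95), ENSMUSG00000064345 (r = 0.94) and ENSMUSG00000026578 (r = 0.93) followed. Of these, ENSMUSG00000064345 was abundant, with means of 12643 ± 3791 FPKM (WT), 8031 ± 1676.5 (Model) and 9174 ± 1615 (QDG). ENSMUSG00000105957 and ENSMUSG00000026578 averaged 1.20 and 15.3 FPKM over the 9 libraries. These features were picked for their likeness out of 12181, the libraries share 1 high sample, WT 1, and the values are a description. The files do not pair identifiers with names, and the lists of other respiratory chain, mitochondrial transcription and assembly genes matched 0 identifiers, so they were not tested.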

How the data were processed

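Kidney RNA was sequenced in 9 libraries, 3 per group. The authors deposited 1 value per feature and library without naming the unit. FPKM was assumed, because the deposited values move in steps of whole reads over feature length and library total. The submitters' processing notes name limma, with no further detail. No aligner, counter, genome build or annotation is given in the sources used here. Whole reads were recovered by finding, for each feature, the shortest whole length of at least 30 bases at which all 9 values give whole reads (absolute tolerance 0.001 read or relative 2e-07). For the 6 genes the largest deviation was 0.0285 read. The reads summed over the listed features (26.8 M to 29.4 M) exceeded the implied library total in 4 of 9 libraries, so that total is not this sum, and what it counts is not known. No feature was listed at 0.

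Log2(FPKM + 1) values were fitted with limma 3.58.1 in R 4.3.3, with an intensity trend, 3 groups and no covariates, and Benjamini-Hochberg adjustment over 12187 features. The procedure was tested on simulated data first. Ratios were compared by exact permutation with scipy 1.17.1. The alternatives covered pseudocount, filter, scaling, voom on recovered reads, feature length, groups fitted, a replicate block and each library left out. Scaling voom by the reads over listed features was added after seeing the data. All 6 genes are named, and the 5 features most like them are printed by identifier, since identifiers carry no names. The rule for naming genes of other lists could not be applied. The genes and lists were chosen with earlier results of these data known.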

Additional observations from a re-analysis of the deposited data

How the results depend on the processing

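Under the 12 alternatives that changed the processing, scaling, test or fit without leaving out a single library, all 72 log2 differences of the 6 genes in each comparison kept their sign and stayed short of the threshold. With 1 library of the groups compared left out, 33 of 36 values did so for Model against WT, 31 of 36 for QDG against Model and 32 of 36 for QDG against WT. The number of the 6 genes called ranged from 0 to 1 in Model against WT (mt-Atp8, without WT 3) and was 0 in the other comparisons. Values that changed sign ranged, with 1 library left out, from −0.78 to 0.22 for mt-Co3 in Model against WT, from −0.14 to 0.71 (mt-Co2), −0.13 to 0.45 (mt-Atp6) and −0.029 to 0.85 (mt-Co3) in QDG against Model, and from −0.39 to 0.049 (mt-Cytb), −0.27 to 0.71 (mt-Co3) and −0.56 to 0.17 (mt-Co2) in QDG against WT. The adjusted p of mt-Co1 in Model against WT ranged from 0.0511 (voom scaled by reads over listed features, added after seeing the data) to 0.687 (no filter on low values), and that of mt-Atp8 from 0.0287 to 0.296.

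The share held by the 6 genes differed by −4.32 percentage points of summed FPKM between Model and WT, and by −2.39 points as a share of recovered reads. For QDG against Model the values were 2.75 and 1.32. Over all features, Model against WT called 963 (76.0% higher), 233 with FPKM rescaled to a common sum, 323 (48.6% higher) when rescaled by the sum over features other than the 6 genes, 144 with only the 2 groups fitted, 533 with the replicate block, and 195 (without Model 3) to 1529 (without WT 3) with 1 library left out. The higher share was 60.4% with quantile normalization, 62.7% with the length trend removed and 63.9% with voom scaled by reads over listed features. Rescaling by the other features moved the median log2 difference of all features from 0.02 to −0.09 in Model against WT and from −0.02 to 0.09 in QDG against Model. For QDG against Model the count was 0, and 1 when only these 2 groups were fitted; leaving out a library gave 0 to 3 (the highest without Model 1). For QDG against WT it was 301. It became 515 with quantile normalization, 530 with the length trend removed, 486 when only these 2 groups were fitted and 154 with the replicate block, and leaving out a library gave 39 (QDG 2) to 775 (WT 3). The causes were not tested. Replicate numbers did not pair the libraries: deviations from the group means of same-numbered libraries correlated at −0.33 to 0.14, with 1 of 9 pairs over 0.1. Only QDG 2 correlated best with a library of its own number (Model 2, 0.143). The block changed no call of the 6 genes.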
